A study of Mus musculus with 6 samples.

Results

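The complement and coagulation genes are a list of 35 genes that encode complement components, their regulators and receptors, clotting factors, anticoagulant receptors and the plasminogen activators. They were chosen by gene name, with earlier results of these data known, and all 35 were found among the 54532 genes of the deposited table. RNA was sequenced from 3 colon tumor samples of Tmem173fl/fl mice, labelled WT, and 3 of Tmem173iΔmye mice, labelled CRE, and the tumors are numbered as the labels number them. Both groups carried floxed Tmem173, the gene for STING, on a C57BL/6N background and received AOM and DSS, a carcinogen with a colitis-inducing agent, for 3 DSS cycles, and then tamoxifen. The Tmem173iΔmye mice also carried Lyz2-Creert2, spelled Lzym-Creert2 in the series' own description, a tamoxifen-dependent Cre recombinase driven by the lysozyme gene in myeloid cells. Age and sex are not given in the labels. The comparison asked which of these genes differed between the genotypes when STING was deleted in myeloid cells after tumors had formed.

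Complement is a protease cascade of innate immunity. In its classical branch, C1q binds antibody or damaged surfaces and carries the proteases C1r and C1s, which cleave C4 and C2 to form an enzyme that cleaves C3. Cleaved C3 tags surfaces for uptake by phagocytes, its small fragments recruit leukocytes, and regulators on host cells and in plasma stop the cascade. Coagulation is a second protease cascade, which tissue factor starts and which fibrinolysis later undoes. Many of the circulating proteins of these cascades come from the liver, while the receptors and several regulators sit on cell membranes. Macrophages, stromal cells and epithelial cells of the gut also make several of the proteins.

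Library totals ran from 15329810 to 16533732 counted reads. Levels are given as FPKM, fragments scaled to gene length in kilobases and to sequencing depth, which allows genes of different length to be set side by side. Reads of Y-linked genes numbered 3547 in Tmem173fl/fl tumor 1, 2875 in Tmem173iΔmye tumor 1 and 2655 in Tmem173iΔmye tumor 2, while the remaining tumors had no more than 2, so that sex was unevenly spread over the groups. The targeted gene did not separate the groups in whole tumors. Tmem173 had 1748, 2911 and 1705 counts in the Tmem173fl/fl tumors and 2291, 2245 and 1953 in the Tmem173iΔmye tumors. All 6 epithelial markers were detected, and their summed level was 5298 to 6340 FPKM over the 6 tumors.

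The sequences upstream of C1s1, C3 and F3 are shown because these genes stand for the initiating proteases, the central component and the start of clotting. Each is the 250 bases before a transcription start, 5′ to 3′ on the gene's strand, from RefSeq on GRCm38.p6. C1s1 is at chr6:124542360-124542609 on the minus strand, C3 at chr17:57228137-57228386 on the minus strand and F3 at chr3:121723287-121723536 on the plus strand. Capitals mark matches on either strand to TTNCNNAA, a C/EBP-type motif, in C1s1 and C3, and to TGANTCA, an AP-1-type motif, in F3.
C1s1: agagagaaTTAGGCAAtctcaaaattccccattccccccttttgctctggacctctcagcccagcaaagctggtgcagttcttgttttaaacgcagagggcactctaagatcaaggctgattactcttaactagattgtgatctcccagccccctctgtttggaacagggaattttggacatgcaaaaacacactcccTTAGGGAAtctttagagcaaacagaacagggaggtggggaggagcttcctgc
C3: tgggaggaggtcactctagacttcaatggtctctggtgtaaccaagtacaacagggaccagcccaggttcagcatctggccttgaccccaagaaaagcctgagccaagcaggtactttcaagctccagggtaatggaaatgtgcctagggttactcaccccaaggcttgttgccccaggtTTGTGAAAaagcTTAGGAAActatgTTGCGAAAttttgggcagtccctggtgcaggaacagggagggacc
F3: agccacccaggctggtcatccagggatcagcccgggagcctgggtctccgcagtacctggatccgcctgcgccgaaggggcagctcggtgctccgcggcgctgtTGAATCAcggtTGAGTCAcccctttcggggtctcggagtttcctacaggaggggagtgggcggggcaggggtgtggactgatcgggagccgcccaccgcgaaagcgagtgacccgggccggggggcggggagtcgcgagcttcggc
The C1s1 matches lay at -242 to -235 and -52 to -45 from the start shown. C1s1 also has another start, whose promoter overlaps this one and holds the nearer match at -90 to -83, without the farther one. C3 held 3 matches within its last bases, at -70 to -63, -58 to -51 and -45 to -38. In F3 a pair of AP-1-type matches lay at -146 to -140 and -135 to -129. TTNCNNAA is short and common, and 36.8% of 32851 mouse promoters of this length held it, against 16 of the 27 promoters found for 24 of the 35 genes. The 16 count promoters and not genes, and both overlapping promoters of C1s1 are among them. TGANTCA was in 6.75% of all promoters and in 5 of the 27, those of Procr, F3, C3ar1, Plaur and Itgax. The interferon-stimulated response element was in 2.98% of all promoters and in 1 of the 27, that of Cd59a. TTCNNNGAA, a form of the gamma-activated site, was in 7.02% of all promoters and in 1 of the 27, that of C7. Both strands were searched, and matches to different motifs were counted separately even where they overlapped. A match describes letters and not a bound site.

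The tumors expressed these genes over a wide span. F3, which encodes tissue factor, had the highest mean level, 83.5 FPKM over the 6 tumors. The chains of C1q followed, with mean levels of 76.9 FPKM for C1qa, 62.2 FPKM for C1qb and 32.8 FPKM for C1qc. Plat, the tissue plasminogen activator, came next at 31.2 FPKM, and then Serping1, the inhibitor of C1r and C1s, at 27.5 FPKM. Of 34 neighbouring pairs in this order, 33 had overlapping ranges over the tumors, so that the order of single neighbours is loose. At the other end, 6 genes had a mean level under 0.5 FPKM and were not tested. Masp1, a protease of the lectin branch, had 12 to 57 counts in a tumor. C5ar2, a second C5a receptor, had 14 to 29 counts. Hc, the gene for C5, had 1 to 5 counts, while C7 had at most 2 and Vsig4, a macrophage receptor for C3 fragments, at most 1. C6, with 9 to 44 counts, is described with the terminal pathway.

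**Figure D1:**
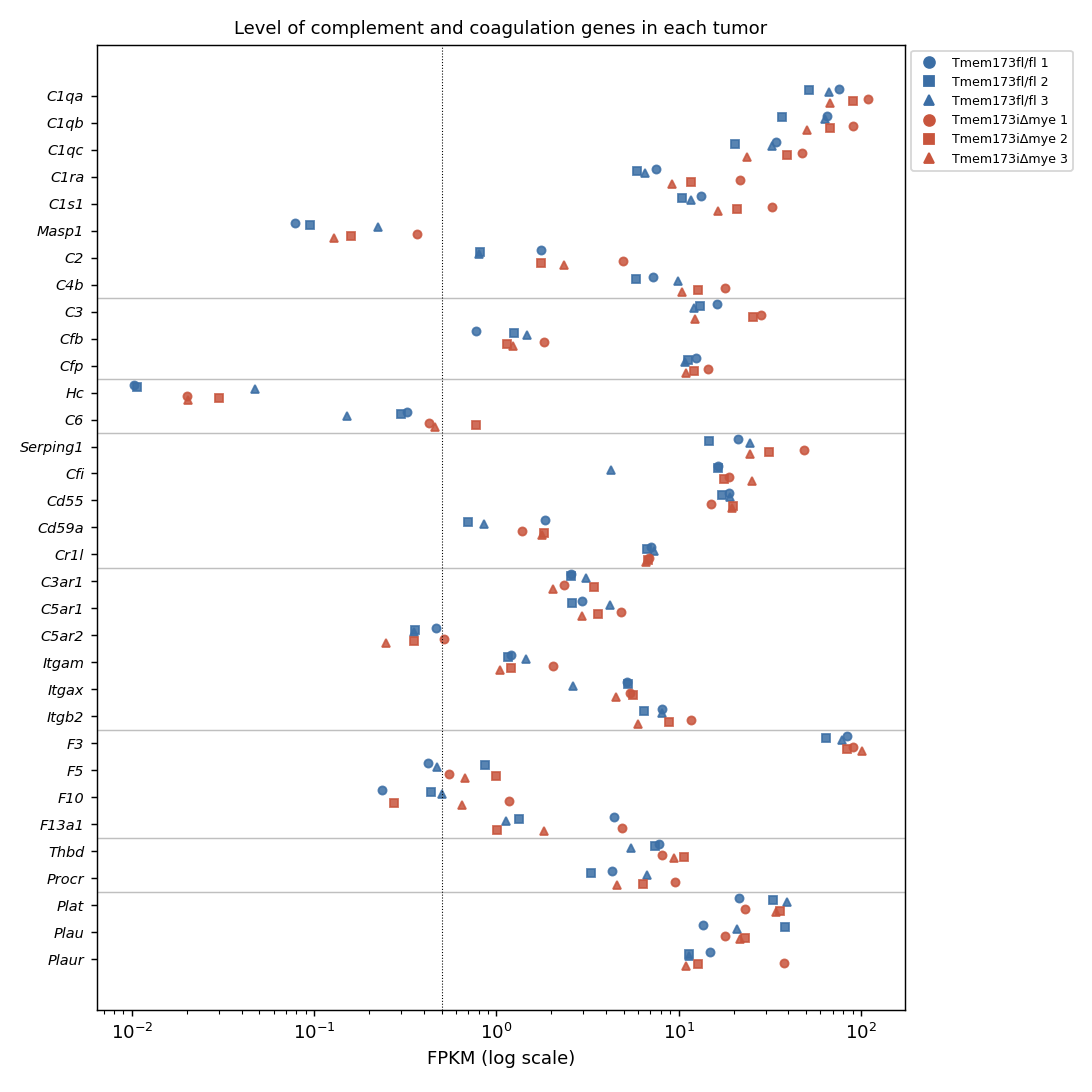
Level of the complement and coagulation genes in each tumor, as FPKM on a log scale, grouped by role with grey lines between roles. Blue points are Tmem173fl/fl and red points Tmem173iΔmye tumors, the dotted line marks 0.5 FPKM, and C7 and Vsig4, at 0 in most tumors, are left out. F3 and C1qa lie at the right, near 100 FPKM, and Hc at the far left.

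Between the genotypes, 25 of the 29 genes tested had a higher level in Tmem173iΔmye tumors, and the classical branch had the highest median of the roles. The median log2 fold change, given throughout as Tmem173iΔmye over Tmem173fl/fl, was 0.34 over the 29 genes, beside -0.00 over the 16426 genes tested. A log2 fold change above 0 was found in 86.2% of them, beside 49.4% of all genes. In edgeR's quasi-likelihood test on the counts with Benjamini-Hochberg adjustment, 0 of the 29 genes had an adjusted p under 0.05, beside 0% of all genes, and their smallest adjusted p was 0.742. DESeq2 also called 0 of the 29, and 28 of all genes. None of the differences below passed the adjusted threshold, and unadjusted values are given as a description. The list was chosen with earlier results of these data known, so its shares beside those of all genes are also a description only.

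At an unadjusted p under 0.05, edgeR counted 6 of the 29 genes, or 20.7%, beside 6.14% of all genes in either direction and 3.23% higher in Tmem173iΔmye tumors. The 6 were C1ra, C1s1, C2, C4b, Serping1 and Thbd, each higher in Tmem173iΔmye tumors. Every Tmem173iΔmye tumor lay above every Tmem173fl/fl tumor for 7 of the 29 genes, or 24.1%, beside 6.14% of all genes. These were C1ra, C1s1, C2, C4b, Cfi, F3 and Thbd. The opposite arrangement was found for 0 of the 29, beside 6.31% of all genes. The p-values measure the spread between these tumors. In whole tumors, fewer cells of a type and less RNA per cell cannot be told apart.

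**Figure D2:**
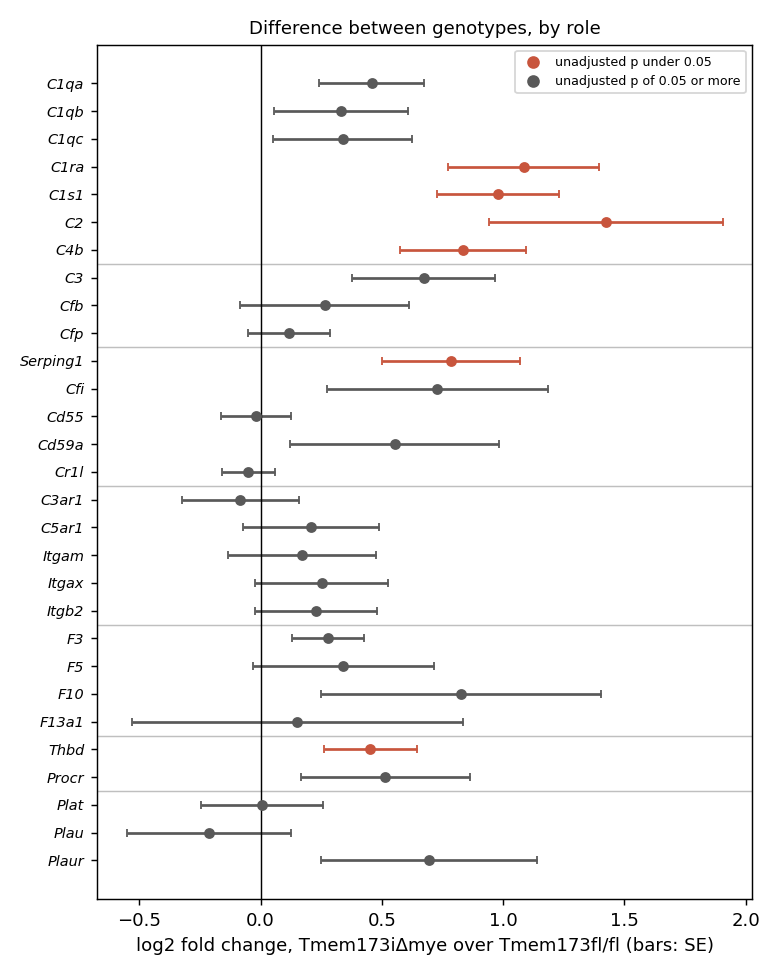
Log2 fold change of the 29 genes tested, Tmem173iΔmye over Tmem173fl/fl, with bars of 1 SE from edgeR and grey lines between roles. Red points are the 6 genes with an unadjusted p under 0.05, all to the right of 0. C2 is farthest right at 1.42, and Plau farthest left at -0.21.

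The classical and lectin branch held 4 of these 6 genes, and its 7 tested members were all higher in Tmem173iΔmye tumors, with a median log2 fold change of 0.83. The 4 genes with an unadjusted p under 0.05 were those of the proteases, C4 and C2, and not those of the C1q chains. For C4b and C2 this difference from the C1q genes was not tested. For C1ra and C1s1 it was compared only as the ratios to C1qa given below. C1s1, which encodes the C1s protease that cleaves C4 and C2, lies on chromosome 6 from 124530345 to 124542359. Its level was 13.2, 10.4 and 11.7 FPKM in the Tmem173fl/fl tumors and 32.5, 20.8 and 16.4 FPKM in the Tmem173iΔmye tumors. The groups did not overlap, and the lowest Tmem173iΔmye tumor was the one numbered 3. On the log2 scale the difference was 0.98 (SE 0.25), with an unadjusted p of 0.0049 in edgeR.

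C1ra, the gene for C1r, which activates C1s, lies 6902 bases from C1s1 on the opposite strand. Its level was 7.49, 5.92 and 6.56 FPKM in Tmem173fl/fl tumors and 21.6, 11.7 and 9.20 FPKM in Tmem173iΔmye tumors. The order of the Tmem173iΔmye tumors was that of C1s1, with tumor 1 far above the others. For C1ra edgeR gave 1.08 (SE 0.31) as the log2 fold change and 0.0085 as the unadjusted p. The ratio of C1ra to C1s1 was 0.561 to 0.570 in 5 of the 6 tumors and 0.664 in Tmem173iΔmye tumor 1, so that the neighbouring genes kept nearly 1 proportion across both genotypes. Their paralogs C1rb and C1s2, whose reads could be split with them, had at most 20 counts in a tumor.

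C4b encodes C4, whose cleaved form anchors the C3 convertase. Its level was 7.21, 5.82 and 9.95 FPKM in Tmem173fl/fl tumors and 18.0, 12.7 and 10.4 FPKM in Tmem173iΔmye tumors. The groups lay apart, though only by the gap between both tumors numbered 3. Its log2 fold change of 0.83 (SE 0.26) came with an unadjusted p of 0.0127. C4a, its near-identical neighbour, had 31 to 58 counts in a tumor, and how reads shared between them were counted is not given in the sources used here.

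C2 encodes the protease that joins C4 fragments in the convertase. It had the largest difference of the 29 genes at a low level, with 1.75, 0.811 and 0.801 FPKM in Tmem173fl/fl tumors and 4.98, 1.76 and 2.34 FPKM in Tmem173iΔmye tumors. Tmem173fl/fl tumor 1 and Tmem173iΔmye tumor 2 nearly met. Its log2 fold change was 1.42 (SE 0.48) and the unadjusted p 0.0188, and without Tmem173iΔmye tumor 1 the fold change was 0.86 with a p of 0.0826. C2 and Cfb lie 86 bases apart on chromosome 17, and the ratio of C2 to Cfb, 0.542 to 2.72 over the tumors, overlapped between genotypes. Of the exon bases, 42.8% of C2 and 79.5% of Cfb also belong to a readthrough gene, Gm20547, which had 0 counts in every tumor. How reads on the shared bases were counted is not given in the sources used here. The levels of C2 and Cfb and their ratio may therefore leave out such reads.

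The C1q chains were abundant, and their groups overlapped. C1qa, 1 of 3 chains that C1q is built from and in many tissues a macrophage product, had 76.0, 51.6 and 66.5 FPKM in Tmem173fl/fl tumors and 109, 90.3 and 67.5 FPKM in Tmem173iΔmye tumors. C1qb had 64.9, 36.7 and 63.4 FPKM against 89.9, 67.6 and 50.6 FPKM. For both genes the groups overlapped, and Tmem173iΔmye tumor 3 lay within the Tmem173fl/fl range. The log2 fold change was 0.46 (SE 0.22, unadjusted p 0.0669) for C1qa and 0.33 (SE 0.28, p 0.268) for C1qb. C1qc, beside them on chromosome 4, was at 20.3 to 47.3 FPKM with a log2 fold change of 0.34.

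Within a tumor, C1s1 and C1ra were higher relative to C1qa in the Tmem173iΔmye group. These ratios were chosen after the values were seen, so their separation is a description only. The ratio of C1s1 to C1qa was 0.174, 0.201 and 0.176 in Tmem173fl/fl tumors and 0.297, 0.230 and 0.243 in Tmem173iΔmye tumors. C1ra to C1qa was 0.104 ± 0.00926 (SD, n = 3) against 0.154 ± 0.0373 (SD, n = 3). Neither ratio overlapped between the groups. Each had a two-sided exact permutation p of 0.1, the smallest that 3 against 3 can give, and 0.6 after adjustment over the 12 ratios computed. The ratio of C1qb to C1qa, by contrast, was 0.840 ± 0.121 and 0.773 ± 0.0420 (SD, n = 3 each, exact permutation p = 0.6).

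**Figure D3:**
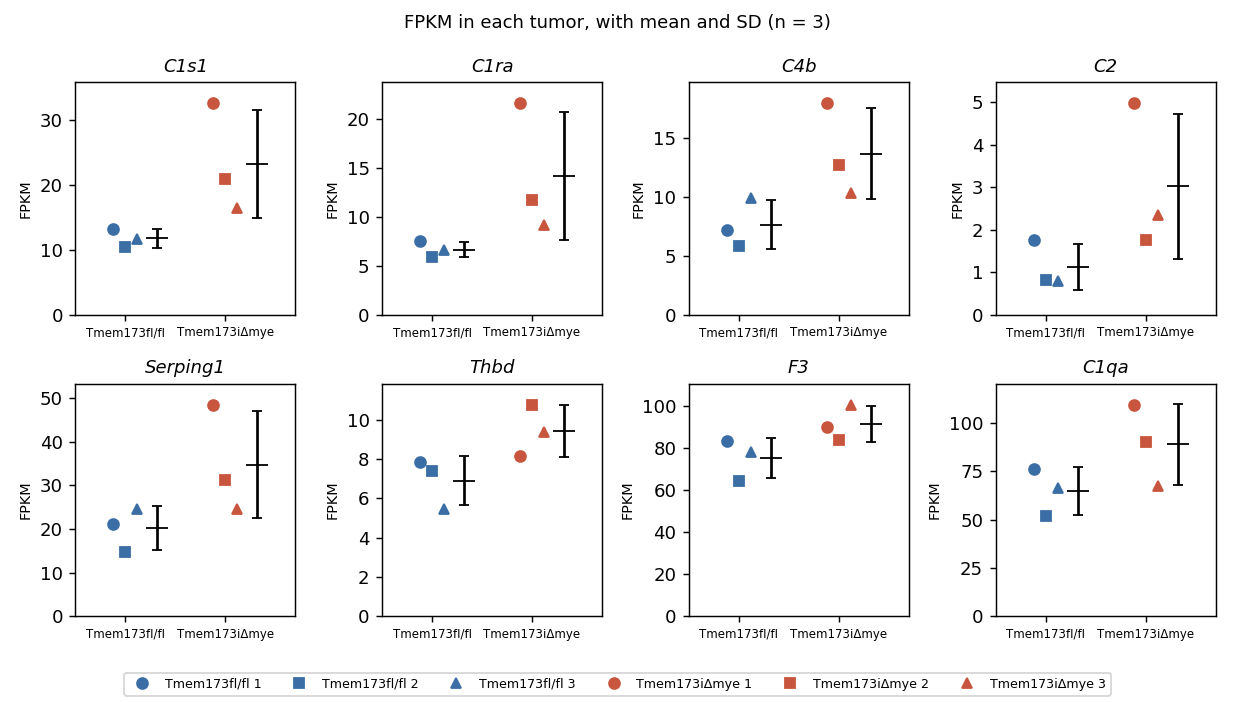
FPKM in each tumor for 8 genes, each panel starting at 0, with the mean and SD of each genotype beside the points (n = 3 each). C1s1, C1ra, C4b, C2, Thbd and F3 show groups that do not overlap, Tmem173iΔmye tumor 1 (red circle) is the highest for C1s1, C1ra, C4b, C2, Serping1 and C1qa, and it is the lowest of its group for Thbd.

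C3, the component on which the branches meet, was higher in 2 of 3 Tmem173iΔmye tumors. Its level was 16.2, 13.1 and 12.1 FPKM in Tmem173fl/fl tumors and 28.3, 25.5 and 12.3 FPKM in Tmem173iΔmye tumors, so that the third lay inside the range of the controls. The log2 fold change was 0.67 (SE 0.29) with an unadjusted p of 0.0528 in edgeR. Cfp, the gene for properdin, which stabilizes the alternative convertase, had 12.4, 11.3 and 10.9 FPKM against 14.5, 12.1 and 10.9 FPKM. Its groups overlapped, and the log2 fold change was 0.12 (SE 0.17). Cfb, factor B, was low at 0.770 to 1.83 FPKM with a log2 fold change of 0.26 (SE 0.35).

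The terminal pathway, which builds the pore that lyses cells, was near the limit of detection. C6 had 18, 16 and 9 counts in Tmem173fl/fl tumors and 24, 44 and 26 counts in Tmem173iΔmye tumors. The groups did not overlap, at levels of 0.151 to 0.773 FPKM. Hc had 1, 1 and 5 counts against 2, 3 and 2, where no difference could be detected at this depth.

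The 5 regulators had a median log2 fold change of 0.55, with 3 above 0 and 2 below, and no test compared them with each other. Serping1 lies on chromosome 2 from 84765387 to 84775444. Its level was 21.1, 14.7 and 24.6 FPKM in Tmem173fl/fl tumors and 48.5, 31.3 and 24.6 FPKM in Tmem173iΔmye tumors. The 2 tumors numbered 3 were almost equal and the groups touched there. The log2 fold change was 0.78 (SE 0.28), with an unadjusted p of 0.0254 that became 0.0989 without Tmem173iΔmye tumor 1. The ratio of Serping1 to C1s1, an inhibitor to its target, was 1.492, 1.502 and 1.499 in the Tmem173iΔmye tumors and spread from 1.42 to 2.11 in the Tmem173fl/fl tumors (exact permutation p = 0.4).

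Cfi, the protease that inactivates C3b and C4b, had 16.5, 16.4 and 4.24 FPKM in Tmem173fl/fl tumors and 18.8, 17.7 and 25.2 FPKM in Tmem173iΔmye tumors. The groups lay apart, and Tmem173fl/fl tumor 3 was far below the other controls. Cfi had a log2 fold change of 0.73 (SE 0.45, unadjusted p 0.148). Cd55, a membrane protein that speeds the decay of convertases, had 19.0, 17.2 and 19.1 FPKM against 15.1, 19.9 and 19.6 FPKM and a log2 fold change of -0.02 (SE 0.14). Cr1l, another membrane regulator, had the narrowest range of the regulators, 6.61 to 7.30 FPKM over the 6 tumors. Cd59a, which blocks the terminal pore, was at 0.701 to 1.84 FPKM with a log2 fold change of 0.55 (SE 0.43).

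The receptors through which leukocytes read complement fragments had a median log2 fold change of 0.21, and 0 of the 5 tested had an unadjusted p under 0.05, a count that says little beside 6.14% of all genes. Itgb2, the shared β chain of the complement receptors built from Itgam and Itgax, had 8.08, 6.44 and 8.09 FPKM in Tmem173fl/fl tumors and 11.7, 8.89 and 5.99 FPKM in Tmem173iΔmye tumors. Itgax, also known as CD11c, had 5.18, 5.25 and 2.62 FPKM against 5.37, 5.62 and 4.55 FPKM. Both genes overlapped between the groups, with log2 fold changes of 0.23 (SE 0.25) and 0.25 (SE 0.27). Itgam, CD11b, was at 1.05 to 2.04 FPKM with a log2 fold change of 0.17, and 68.7% of its exon bases are shared with Gm49368. Gm49368 had at most 2 counts in a tumor, and the level of Itgam may likewise leave out shared reads. The anaphylatoxin receptors C3ar1 and C5ar1 had log2 fold changes of -0.08 (SE 0.24) and 0.21 (SE 0.28) at 2.04 to 4.802 FPKM.

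The 4 clotting genes had log2 fold changes above 0, with a median of 0.31. F3 encodes tissue factor, the receptor that starts coagulation. Its level was 83.3, 64.5 and 78.3 FPKM in Tmem173fl/fl tumors and 90.2, 83.9 and 101 FPKM in Tmem173iΔmye tumors. The groups did not overlap but nearly met, and the highest tumor was number 3 and not number 1. Its log2 fold change was 0.28 (SE 0.15), with an unadjusted p of 0.1003. F13a1, the transglutaminase subunit that cross-links fibrin and is found in macrophages and platelets, had 4.45, 1.34 and 1.12 FPKM against 4.89, 1.01 and 1.82 FPKM. In each genotype the tumor numbered 1 was the high one, and the log2 fold change of 0.15 had an SE of 0.68. F5 and F10, at 0.234 to 1.18 FPKM, had log2 fold changes of 0.34 (SE 0.37) and 0.83 (SE 0.58).

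The anticoagulant receptors act on vessel walls and epithelia. Thbd, thrombomodulin, which turns thrombin toward activating protein C, had 7.82, 7.38 and 5.46 FPKM in Tmem173fl/fl tumors and 8.15, 10.8 and 9.39 FPKM in Tmem173iΔmye tumors. The groups lay apart, with Tmem173iΔmye tumor 2 highest. A log2 fold change of 0.45 (SE 0.19) came with an unadjusted p of 0.0463 that stood under 0.05 in 9 of 14 alternative analyses. Procr, the receptor for protein C, had 4.29, 3.32 and 6.72 FPKM against 9.55, 6.37 and 4.61 FPKM, which overlapped, and a log2 fold change of 0.51 (SE 0.35).

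Fibrinolysis genes had a median log2 fold change of 0.01. Plat had 21.4, 32.9 and 39.1 FPKM in Tmem173fl/fl tumors and 23.3, 36.2 and 34.3 FPKM in Tmem173iΔmye tumors, a log2 fold change of 0.01 (SE 0.25). Plau, urokinase, had 13.5, 38.4 and 20.8 FPKM against 17.9, 23.0 and 21.7 FPKM, with its highest value in Tmem173fl/fl tumor 2. Plaur, the urokinase receptor, was at 37.6 FPKM in Tmem173iΔmye tumor 1 and at 11.01 to 14.9 FPKM in the other 5 tumors. Its log2 fold change of 0.69 (SE 0.45) was -0.09 without that tumor.

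Tmem173iΔmye tumor 1 was the highest for most of these genes. This was so for 18 of the 29 genes, or 62.1%, beside 25.2% of all genes. The same tumor had the highest summed level of neutrophil markers, 545 FPKM against 80.2 to 254 FPKM in the other 5 tumors, and of 22 interferon response genes, 1168 FPKM against 166 to 363 FPKM. S100a8 and S100a9 made up 169 and 263 FPKM of that neutrophil sum. Csf3r, Cxcr2 and Retnlg were also highest there, while Ly6g, at 66.4 FPKM, lay within its Tmem173fl/fl range of 40.5 to 107 FPKM. Without Tmem173iΔmye tumor 1, the median log2 fold change was 0.19, and 20 of the 29 genes had a log2 fold change above 0. In edgeR 4 of the 29 genes then had an unadjusted p under 0.05, beside 575 of the 16426 genes tested. C1s1, C1ra and C4b had log2 fold changes of 0.66, 0.65 and 0.59, with unadjusted edgeR p-values of 0.0084, 0.0140 and 0.0481. Thbd had a log2 fold change of 0.55 with an unadjusted edgeR p of 0.0298.

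**Figure D4:**
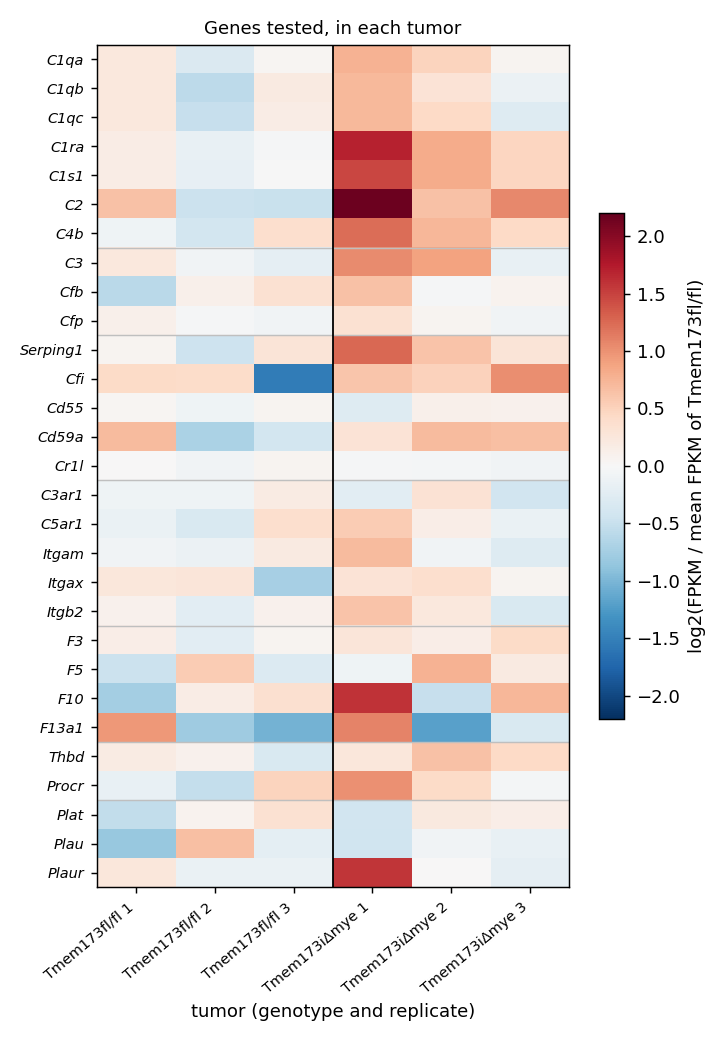
Level of each of the 29 genes in each tumor relative to the gene's mean over the Tmem173fl/fl tumors, on a log2 scale, red above and blue below that mean, with tumors in columns and genes in rows by role. Tmem173iΔmye tumor 1 is the highest for 18 genes, among them the 7 tested of the classical branch, and Plaur and C2 stand out there.

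The other genes of the pathways were read from lists of 25 complement and 35 coagulation and fibrinolysis genes. Of the complement genes 11 were tested, with 5 higher and 6 lower in Tmem173iΔmye tumors. Unadjusted edgeR p-values were under 0.05 for 1 in each direction, beside 6.14% of all genes in either direction. Clu, clusterin, an inhibitor of the terminal pore, was at 271, 256 and 146 FPKM against 273, 380 and 451 FPKM, a log2 fold change of 0.71 (SE 0.28). Susd4, a complement regulator, was at 0.502 to 1.81 FPKM against 0.178 to 0.443 FPKM, a log2 fold change of -1.75 (SE 0.62). C1qbp, which can bind C1q, had a log2 fold change of 0.26. Mbl1, Mbl2 and Fcnb, recognition proteins of the lectin branch, had 0 counts in every tumor, so that neither they nor a difference in them was detectable at this depth.

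Of these 35 coagulation and fibrinolysis genes 14 were tested, 13 higher and 1 lower, with a median log2 fold change of 0.32 and 3 unadjusted p-values under 0.05, those of Serpind1, Serpine2 and Tfpi2, beside 6.14% of all genes. On the log2 scale Serpind1, heparin cofactor II, differed by 1.46 (SE 0.46). Serpine2, a thrombin inhibitor, differed by 0.92 (SE 0.29), and Tfpi2 by 0.82 (SE 0.33). The groups of Serpine2, Serpind1 and Tfpi2 did not overlap. The most abundant were Anxa2 and S100a10, which together bind plasminogen at the cell surface, at log2 fold changes of 0.37 (SE 0.22) and 0.35 (SE 0.27), and F2rl1, a protease-activated receptor, at 0.15 (SE 0.19). Fga, Fgb and Fgg, the fibrinogen chains made by the liver, had 0 counts in every tumor.

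Marker lists were read for the cells these tumors held, and a sum weighs its most abundant genes most. Counts of marker genes at an unadjusted p under 0.05 stand beside 6.14% of all genes. Counts from lists this short cannot be told from that share. The summed level of 8 macrophage markers was 183 to 354 FPKM in Tmem173fl/fl tumors and 164 to 292 FPKM in Tmem173iΔmye tumors. Lyz2, the lysozyme gene that drives Cre in the Tmem173iΔmye mice, made up 123 to 307 FPKM of these sums. The median log2 fold change was -0.03 over the 7 macrophage markers tested, with 0 of 7 at an unadjusted p under 0.05. Fibroblast markers summed to 156 to 204 FPKM against 174 to 247 FPKM, with a median of 0.28, 5 of 6 above 0 and 1 of 6 at an unadjusted p under 0.05. That gene, Dpt, a matrix protein gene, was at 4.57 to 6.16 FPKM against 9.95 to 13.4 FPKM, a log2 fold change of 1.08 (SE 0.20), and the groups did not overlap. Endothelial markers were at 13.6 to 16.9 FPKM against 16.1 to 23.9 FPKM, with 1 of 6 at an unadjusted p under 0.05, Pecam1, at a log2 fold change of 0.36 (SE 0.16). Of the hepatocyte markers Alb and Tat passed the filter, with log2 fold changes of 1.202 (SE 0.57) and -0.02 (SE 0.39), while Ahsg and Apoh had at most 11 counts in a tumor and Hpx at most 13. Smooth muscle and B cell markers had medians of -0.50 and -0.82, T cell and neutrophil markers medians of 0.78 and 0.69, and platelet markers a median of 0.02. At an unadjusted p under 0.05 were 1 of 5 smooth muscle genes, lower, and 1 of 5 T cell genes, higher, and 0 of the neutrophil, B cell and platelet genes. Dendritic cell and mesothelial lists had 1 tested gene each. Every one of these cell marker lists overlapped between the groups.

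The interferon response list had the largest median of the lists. All 22 of its genes were higher in Tmem173iΔmye tumors, with a median log2 fold change of 1.52. Of them 18 were higher at an unadjusted p under 0.05, beside 3.23% of all genes. Its summed level was 280, 167 and 166 FPKM in Tmem173fl/fl tumors and 1168, 258 and 363 FPKM in Tmem173iΔmye tumors, which overlapped. The part of these lists in the levels of the complement and coagulation genes was not tested. With Y-linked reads as a covariate, C1ra, C1s1, C2 and C4b kept an unadjusted p under 0.05 and Serping1 and Thbd did not, at 0.0702 and 0.0839.

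**Figure D5:**
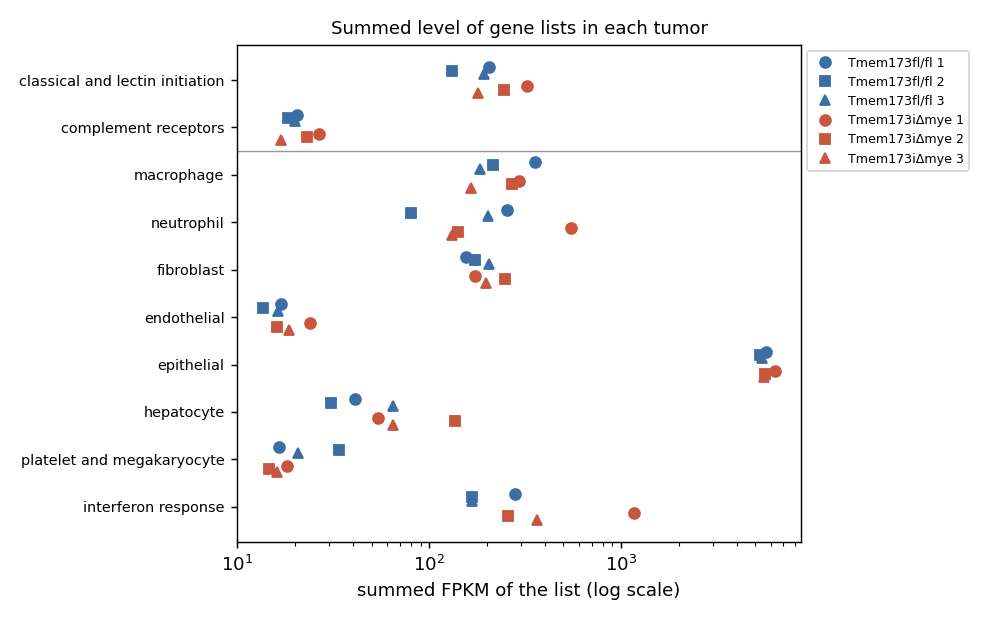
Summed FPKM in each tumor on a log scale, for the classical branch and the complement receptors above the grey line and for cell marker and interferon response lists under it, blue for Tmem173fl/fl and red for Tmem173iΔmye. The macrophage and fibroblast points of the genotypes intermingle, and Tmem173iΔmye tumor 1 lies farthest right in the neutrophil and interferon response rows.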

How the data were processed

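The 6 libraries were polyA RNA-seq of tumors. The submitters' processing notes name CASAVA 1.8, fastp, HISAT2 2.0.5, featureCounts 1.5.0-p3 and DESeq2 1.20.0, with GRCm38/mm10. Strandedness is not given in the sources used here. Raw read counts of each gene were deposited, and the authors also deposited FPKM values, scaled by gene length and library depth. The deposited table also holds the group means, fold changes and p-values of their own comparison, which were not used.

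The quasi-likelihood test of edgeR 4.0.16 under R 4.3.3 was run on the counts, with TMM normalization, genotype alone in the model and p-values adjusted by Benjamini-Hochberg over 16426 genes, those whose mean FPKM reached 0.5. Dividing the size of a log2 fold change by the root of its F gave the SE. The steps were tested on simulated data. Ratios were compared by exact permutation with scipy 1.17.1. As alternatives, the filter was dropped or raised to 1 FPKM, and the fit was repeated with median-of-ratios scaling, DESeq2 1.42.0, limma 3.58.1 on log2(FPKM + 1) or log2(FPKM + 0.1), the replicate number as a block, Y-linked reads as a covariate, and leaving out each tumor. The labels do not say whether tumors of a group came from separate mice, so p-values measure only the spread between these samples, which may be technical.

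The 35 genes and all gene lists were chosen with earlier results of these data known. Values in every tumor are given for genes with an unadjusted p under 0.05, genes whose groups do not overlap and the 2 most abundant genes of each role. From the other pathway lists, up to 5 genes with the lowest p and the 5 most abundant are named. C8a, C8b, C8g and C9 are named beside the terminal pathway. A gene of the coagulation list is not reported here and is left out of the counts of that list. The motifs TTNCNNAA and TGANTCA, the ratios and the genes whose promoters are printed were chosen after the values were seen.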

Additional observations from a re-analysis of the deposited data

How the results depend on the processing

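No complement or coagulation gene had an adjusted p under 0.05 in any of the 14 alternatives. C1ra, C1s1 and C4b had an unadjusted p under 0.05 in all 14, C2 and Serping1 in 11 and Thbd in 9. C2 missed it without Tmem173fl/fl tumor 2 (0.0670), without Tmem173fl/fl tumor 3 (0.0641) and without Tmem173iΔmye tumor 1 (0.0826), and Serping1 without Tmem173fl/fl tumor 2 (0.0816) and Tmem173iΔmye tumor 1 (0.0989). Thbd missed it without Tmem173fl/fl tumor 2 or 3 and without Tmem173iΔmye tumor 2 or 3, at 0.0574 to 0.165. Over all genes, those with an adjusted p under 0.05 numbered 6 with no filter and 28 with DESeq2, against 0, and 0 to 1 when each tumor was left out. Genes with an unadjusted p under 0.05 numbered 1741 of 30939 with no filter, against 1008 of 16426 in the main fit. With Y-linked reads as a covariate they numbered 553 of 16426. They numbered 535 to 1665 of 16426 when each tumor was left out. The number was lowest without Tmem173fl/fl tumor 3 (535) and Tmem173iΔmye tumor 1 (575) and highest without Tmem173fl/fl tumor 1. For the complement and coagulation genes this number was 6 of 29, and 10 of 35 with no filter, which added C1qa, C3, C6 and Cfi. Leaving out each tumor gave 3 to 9 of 29. The lowest was without Tmem173fl/fl tumor 2, beside 1067 of 16426 over all genes. The highest was without Tmem173fl/fl tumor 1, beside 1665 of 16426. The median log2 fold change was then 0.19 (without Tmem173iΔmye tumor 1) to 0.47. The causes of these shifts were not tested.

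The log2 fold change changed sign under at least 1 alternative for 11 genes. Plat was at -0.00056 with a mean FPKM of at least 1, at -0.0024 with median-of-ratios scaling and at -0.0024 with DESeq2. With Y-linked reads as a covariate, F13a1 was at -0.035 and Plau at 0.065. Leaving out each tumor turned C3ar1 (-0.33 to 0.063), C5ar1 (-0.0043 to 0.44), Cfp (-0.0059 to 0.20), Cd55 (-0.092 to 0.097), Itgam (-0.17 to 0.35), Itgax (-0.0070 to 0.41), Itgb2 (-0.022 to 0.44), F13a1 (-0.71 to 1.07), Plat (-0.20 to 0.21), Plau (-0.50 to 0.27) and Plaur (-0.090 to 0.99). The other 18 genes kept their direction.

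Tumors with the same replicate number deviated together with correlations of 0.262, -0.001 and 0.127, beside -0.299 to 0.179 for tumors with different numbers. The ranges overlapped, though 0.262 was the highest of all, and the numbers were not taken to pair the tumors. With the replicate block, 0 genes had an adjusted p under 0.05. An unadjusted p under 0.05 was found for 1504 of 16426 genes and for 8 of the 29 complement and coagulation genes. The median log2 fold change of the complement and coagulation genes was 0.34. Counts under 10, as for Hc, C7 and Vsig4, limit what could be seen.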
